A study of Mus musculus with 4 samples.

Results

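RAW264.7, a line of mouse macrophages, was profiled by ATAC-seq, in which the transposase Tn5 cuts accessible DNA. Described here are the promoters of single protein-coding genes at which a peak had been called in every library. All cells were labelled WT and received 25 ug/mL DIL-oxLDL, a fluorescently labelled oxidized LDL, for 24 h. The control group (n = 2) had DMSO, the solvent, and the esculetin group (n = 2) had 40 ug/mL esculetin, a coumarin. RAW264.7 is a single transformed line, and nothing in the labels says whether the libraries of a group came from separate cultures, so their spread may be technical. Peaks of the 4 lists were joined into 35988 regions where they shared at least 1 bp, and 6174 of these regions were called in all 4 libraries. The members were selected on that presence in every list, on their centre lying within 1 kb of a transcription start site (TSS), and on that TSS belonging to exactly 1 protein-coding gene. There were 3806 members, 61.6% of the regions called in all libraries and 10.6% of all joined regions. Of the other regions called in every library, 1609 had no coding TSS within 1 kb, 747 had 2 and 12 had 3.

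At an active promoter, general transcription factors and RNA polymerase II assemble just upstream of the start, and the nucleosomes that flank this stretch are positioned on either side of it. Tn5 cuts the DNA left free in between. Many promoters of genes that every cell uses lie in CpG islands, stretches rich in the dinucleotide CG, and carry binding sites for Sp1 (the GC box), NF-Y (the CCAAT box), ETS factors, NRF1, CREB (the CRE) and YY1. Promoters of tissue-restricted genes more often lack CpG islands, and some of them have a TATA box.

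The member regions covered 3791 genes, which was 17.9% of 21215 protein-coding genes with a known strand. A pair of member regions lay at each of 15 genes, among them Ube2e3, Gabarapl2, Sp3 and Zfp36l2. The gene's 5′ end was its TSS, and 578 members (15.2%) also had the start of a noncoding gene within 1 kb. The genes lay on the plus strand in 1917 members and on the minus strand in 1889. The share of coding genes that were members ran from 13.1% on chromosome 7 to 22.8% on chromosome 10 among the autosomes, and was 5.65% on chromosome X (54 of 955 genes).

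Promoter sequences of RefSeq (GRCm38.p6, the assembly of mm10) were matched to 3132 members, 82.6% of the member genes. The sequences below show 5 motifs that were more frequent in members than in all coding promoters, each at a strongly called member, then promoters with a large rank difference between the groups (Wdr18, Polr2a and Mt1) and, last, the promoter of the most weakly called member (Tgfb1). Each is given 5′ to 3′ on the strand of the gene. Capitals mark a match to the motif on either strand. Where every match lay past the gene's 5′ end, only 30 bases around the first match are shown. For Amz2, Rab22a, Habp4, Hmgcs1 and Mmd the choice followed a rule, the member with the highest lowest percentile that held the motif. The others were chosen after their values were seen.
Amz2, NRF1 site, chr11:109425964-109425993, plus strand: tccgcgcgagGCGCATGCGtgctaggacca
Rab22a, YY1 site, chr2:173659595-173659835, plus strand: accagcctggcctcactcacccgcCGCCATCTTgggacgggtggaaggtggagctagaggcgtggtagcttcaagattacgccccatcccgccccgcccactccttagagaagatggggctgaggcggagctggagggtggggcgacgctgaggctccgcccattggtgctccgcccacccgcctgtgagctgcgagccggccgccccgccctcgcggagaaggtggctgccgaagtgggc
Habp4, CRE, chr13:64161616-64161865, plus strand: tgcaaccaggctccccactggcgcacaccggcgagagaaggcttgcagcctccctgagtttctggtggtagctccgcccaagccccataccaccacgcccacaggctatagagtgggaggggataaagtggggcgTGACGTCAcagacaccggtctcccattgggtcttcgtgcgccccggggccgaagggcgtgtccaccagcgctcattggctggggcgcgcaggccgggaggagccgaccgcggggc
Hmgcs1, ETS site, chr13:119690101-119690350, plus strand: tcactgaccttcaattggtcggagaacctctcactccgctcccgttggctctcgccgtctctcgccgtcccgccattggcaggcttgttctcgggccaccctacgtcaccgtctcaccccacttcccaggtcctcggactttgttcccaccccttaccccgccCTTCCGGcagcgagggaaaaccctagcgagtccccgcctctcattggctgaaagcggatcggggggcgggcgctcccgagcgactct
Mmd, GC box, chr11:90249268-90249297, plus strand: ggctctgaggttCCGCCCcacctaccgagc
Wdr18, NRF1 sites, chr10:79959902-79960151, plus strand: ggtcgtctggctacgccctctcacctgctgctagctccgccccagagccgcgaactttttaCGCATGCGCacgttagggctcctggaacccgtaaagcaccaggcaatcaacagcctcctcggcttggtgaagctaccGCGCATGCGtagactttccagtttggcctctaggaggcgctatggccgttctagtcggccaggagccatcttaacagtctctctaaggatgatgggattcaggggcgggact
Polr2a, GC boxes, chr11:69758634-69758883, minus strand: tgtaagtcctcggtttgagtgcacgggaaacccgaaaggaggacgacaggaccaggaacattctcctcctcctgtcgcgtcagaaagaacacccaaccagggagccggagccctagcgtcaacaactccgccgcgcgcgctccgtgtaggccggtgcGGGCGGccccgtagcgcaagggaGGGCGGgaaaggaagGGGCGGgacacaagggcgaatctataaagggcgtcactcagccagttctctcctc
Mt1, metal response core, chr8:94179055-94179084, plus strand: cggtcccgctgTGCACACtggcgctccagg
Tgfb1, GC boxes, chr7:25686752-25687001, plus strand: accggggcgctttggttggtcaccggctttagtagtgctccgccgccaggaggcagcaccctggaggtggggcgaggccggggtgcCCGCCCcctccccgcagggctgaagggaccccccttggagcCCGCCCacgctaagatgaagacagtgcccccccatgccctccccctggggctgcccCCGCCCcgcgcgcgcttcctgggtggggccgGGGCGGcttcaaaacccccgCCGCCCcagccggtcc

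The window searched was the 300 bases of each RefSeq promoter, from 250 before to 50 after its start. The GC box (GGGCGG) was held by 77.7% of the members and by 46.9% of all 17274 coding promoters. The CCAAT box, searched as CCAATC or CCAATG, was held by 38.8% and 29.4%, and the ETS site (CCGGAAG) by 20.7% and 12.1%. The NRF1 site (GCGCATGCG) was in 6.03% of the members against 2.43% of all, the CRE (TGACGTCA) in 4.25% against 2.36%, the YY1 site (AAGATGGCG) in 3.61% against 1.92%, and the E-box (CACGTG) in 12.2% against 8.01%. The ZNF143 site (ACTACAATT) was in 0.766% against 0.550%. The TATA box (TATAAA) was rarer in members, at 5.65% against 13.4%. Sites of factors that act in macrophages were also no more frequent in members than in all coding promoters. The C/EBP site (TTGCNNAA) was in 7.31% against 10.3%, the AP-1 site (TGANTCA) in 3.61% against 7.09%, the PU.1 site (GAGGAAGT) in 2.84% against 3.17%, the RUNX site (TGTGGTT) in 3.07% against 4.86% and the IRF site (GAAANNGAA) in 5.36% against 8.19%. The letters of these motifs can overlap in a promoter, and a match is a run of letters, not an occupied site.

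The members were rich in CpG. The median GC content was 63.3% in members, 56.3% in all coding promoters and 51.0% in the 9418 coding promoters with no peak in any list. The ratio of observed to expected CpG had medians of 0.830, 0.586 and 0.285, and a ratio of at least 0.6 was found in 88.1%, 49.0% and 24.1% of these promoters. The motifs sat close to the start. Positions were measured from the start of each RefSeq promoter, which was the gene's TSS in 56.3% of these members. The median position was −79 bp for the CCAAT box, −63 for the GC box, −56.5 for the NRF1 site, −47 for the CRE and −37.5 for the ETS site. For the YY1 site it was +18. Of the strongest 25% of members by mean percentile 46.6% held a CCAAT box and 86.3% a GC box, and of the weakest 25% the shares were 26.1% and 69.7%. The other motifs that were more frequent in members did not share this order, apart from the rare ZNF143 site. The ETS site was in 17.5% of the strongest and 20.6% of the weakest, the E-box in 9.83% and 13.3%, the CRE in 3.45% and 4.34%, the NRF1 site in 5.24% and 5.87% and the YY1 site in 3.19% and 3.45%. Most of these motifs contain CG or are GC-rich, and the part of base composition in these shares was not tested.

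The lists themselves differed. They held between 8677 (esculetin 1) and 27833 (control 2) peaks, and members took 20.5%, 14.4%, 44.5% and 30.3% of the lists of control 1, control 2, esculetin 1 and esculetin 2. The background coverage solved from the lists, a measure of depth, was 6.51, 4.08, 4.97 and 4.1 in the same order. List length did not follow it, as the longest list, control 2, had the lowest value. Control 2 stood apart, with 7.40% of its summits inside pseudogenes against 0.837 to 1.96% in the other libraries. Of 12 macrophage marker genes 6, 7, 1 and 4 had a promoter peak in the 4 libraries in that order, and of 20 markers of T and B cells, fibroblasts, endothelial and epithelial cells none had one. The single macrophage marker among the members was Spi1, the gene of the myeloid factor PU.1, with percentiles within the lists of 66.5 and 45.5 in the control and 17.1 and 49.9 in the esculetin libraries. Macrophage markers with a promoter peak were thus fewer in the esculetin lists, which were also the shorter ones.

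Member regions had a median width of 687 bp after joining (quartiles 544 and 851), from 245 bp to 2539 bp. Their centres lay at a median of +35 bp from the TSS (quartiles −61.5 and 143.9), 49.6% of them within 100 bp and 93.2% within 500 bp. The summit, the base with the highest coverage in the strongest peak of a library, lay slightly upstream. Its median position was −32 bp in control 1, −28 bp in control 2, −19 bp in esculetin 1 and −28 bp in esculetin 2. The group means of these medians were −30 ± 2.83 bp in control and −23.5 ± 6.36 bp in esculetin (SD, n = 2 each), and the difference of 6.5 bp was within the spread (exact two-sided permutation test over 6 splits, p = 0.67). It was 2 bp without esculetin 1 and 11 bp without esculetin 2. That test cannot give a p below 0.33 with 2 libraries a group. The summit lay within 100 bp of the TSS in 60.9%, 60.9%, 61.0% and 62.6% of members, and downstream of it in 34.4%, 36.2%, 41.3% and 36.9%.

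**Figure D1:**
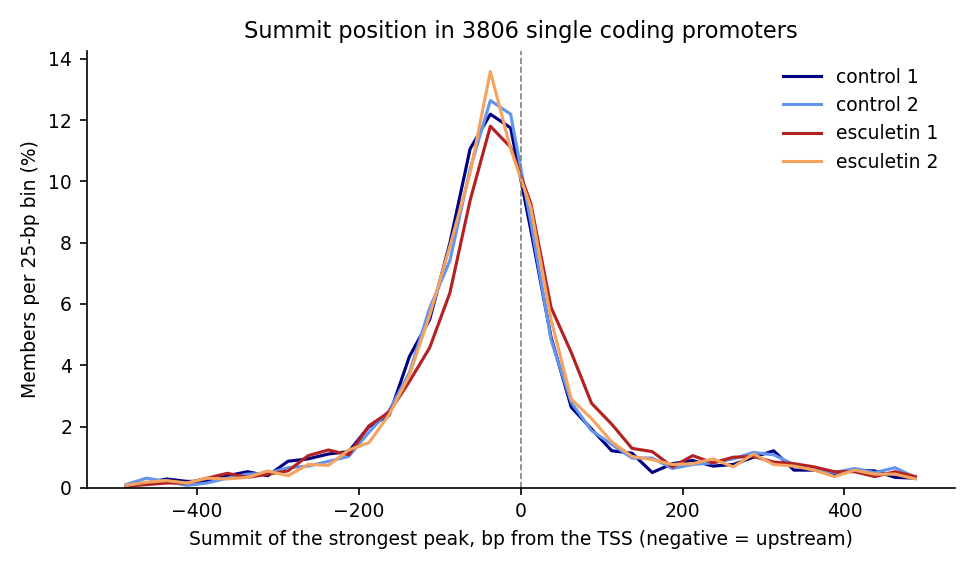
Position of the summit of the strongest peak relative to the TSS (x axis, bp, negative is upstream) against the share of members in bins of 25 bp (y axis, %), 1 line per library. All 4 lines peak just upstream of the TSS, and the line of esculetin 1 reaches further downstream, where 41.3% of its summits lay.

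The same promoter kept nearly the same summit. Across the 4 libraries the summits of a member spanned a median of 81 bp (quartiles 45 and 144), and 95 members spanned more than 500 bp. The median absolute shift between libraries was 30 bp within control, 36 bp within esculetin and 32 to 40 bp between the groups. The widest span was at Vim, which encodes the intermediate filament vimentin. Its summits lay at −705 and 446 bp in control and at −94 and −633 bp in esculetin, a span of 1151 bp. Its percentile was 99.1 in control 2 and 51.9, 33.2 and 46.4 in control 1, esculetin 1 and esculetin 2, so that the high value rested on control 2. Ube2r2, a ubiquitin-conjugating enzyme (1039 bp), and Srsf2, a splicing factor (1033 bp) with 1 peak in every library, followed. The predicted gene LOC108167694, with a span of 1028 bp, also had the widest region of all, 2539 bp. Arf6, a small GTPase of membrane traffic, spanned 966 bp in a region of 2300 bp.

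The widest regions were, after LOC108167694 and Arf6, those of Yy1 (2092 bp), Dipk2a (1928 bp) and Setd5 (1822 bp). Yy1 encodes the transcription factor YY1, and every library had 2 peaks in its region, with percentiles between 88.9 and 96.1. The narrowest regions were those of the predicted gene Gm20594 (245 bp), Cdc42ep2 (264 bp), Bub1 and Igsf8 (283 bp each) and Gabarapl2 (285 bp). Bub1 encodes a kinase of the spindle checkpoint, and its percentiles were 58.9 and 30.1 in control and 11.6 and 44.8 in esculetin. Gabarapl2, an autophagy gene, had its narrow region 698 bp upstream of the TSS.

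At the limit of 1 kb, the members just inside were Tbpl1 (centre 998 bp from the TSS), Lpxn (996.5 bp upstream) and Cep20 (995 bp). The regions just outside lay at Lemd2 (1001 bp), Iba57 (1003 bp) and Zfp959 (1018 bp). Percentiles ran from 5.69 (Lpxn, control 2) to 95.1 (Cep20, control 1) just inside and from 19.5 (Lemd2, esculetin 1) to 99.0 (Zfp959, control 1) just outside, so both sides held weak and strong peaks.

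The peaks at members had median widths of 497.5 and 515.5 bp in control and 450 and 498 bp in esculetin, where the medians of the whole lists were 329, 335, 373 and 358 bp. The group means were 506.5 ± 12.7 bp and 474 ± 33.9 bp (SD, n = 2 each), a difference of −32.5 bp within the spread (exact permutation test, p = 0.67), which was −8.5 bp without esculetin 1 and −56.5 bp without esculetin 2. The percentile of the −log10 p within each list had medians of 79.97 and 75.2 in control and 63.01 and 75.3 in esculetin (77.6 ± 3.36 against 69.2 ± 8.71, SD, n = 2 each, exact permutation test, p = 0.67). This percentile depends on the length of the list, and the lowest median belonged to the shortest list. In lists cut to their 8677 strongest peaks the difference of −8.43 points became 12.8 (exact permutation test, p = 0.67, n = 2 each), and it was −2.27 without esculetin 1 and −14.6 without esculetin 2. Among the lists' top 10% of peaks were 1035, 540, 440 and 762 members. When each peak was instead ranked among the 6174 regions called in all libraries, from 0 for the weakest to 100 for the strongest, the medians were 51.4, 52.7, 51.4 and 52.1, with a difference of −0.27 between the group means (exact permutation test, p = 1.0, n = 2 each). The median fold that the peak caller gave for the summit was 5.04 and 6.11 in control and 5.11 and 6.28 in esculetin.

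More than 1 peak within a member was found in 208 (5.47%) and 197 (5.18%) members in control and in 57 (1.498%) and 64 (1.68%) in esculetin. The groups did not overlap, and the means of 5.32% ± 0.204 and 1.59% ± 0.130 (SD, n = 2 each) differed by −3.73 percentage points, with the smallest p the design allows (exact permutation test, p = 0.33). The control lists were also the longer ones. When every list was cut to its 8677 strongest peaks the difference was 0.401 percentage points, in the opposite direction. The second peaks lay at a median of 502 to 552 bp from the main summit and had median percentiles of 26.3 to 28.7.

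Compared with the 1609 regions called in all libraries without a coding TSS within 1 kb, the member peaks were wider in 4 of 4 libraries, by 42.5, 59.5, 61 and 60 bp at the median (mean 55.8 bp, two-sided exact sign-flip permutation test, p = 0.125, the smallest that 4 libraries allow). Their percentile was higher in 4 of 4 libraries, by 3.73 to 9.18 points (mean 6.79, exact permutation test, p = 0.125). Against the 759 regions with 2 or 3 coding TSSs the order was the other way. Member peaks were narrower there in 4 of 4 libraries (mean −48.5 bp, exact permutation test, p = 0.125), and the percentile was lower in 3 of 4 libraries (mean −2.00 points, exact permutation test, p = 0.25). Over all 2368 other regions the differences were 19.6 bp and 3.31 points, higher in 4 of 4 libraries for both (exact permutation test, p = 0.125 each). The percentile difference turned to −1.94 points when each list was cut to its 8677 strongest peaks (exact permutation test, p = 0.125). Among peaks with a −log10 q of at least 5 the differences were 10 bp (exact permutation test, p = 0.25) and 1.43 points (exact permutation test, p = 0.125).

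**Figure D2:**
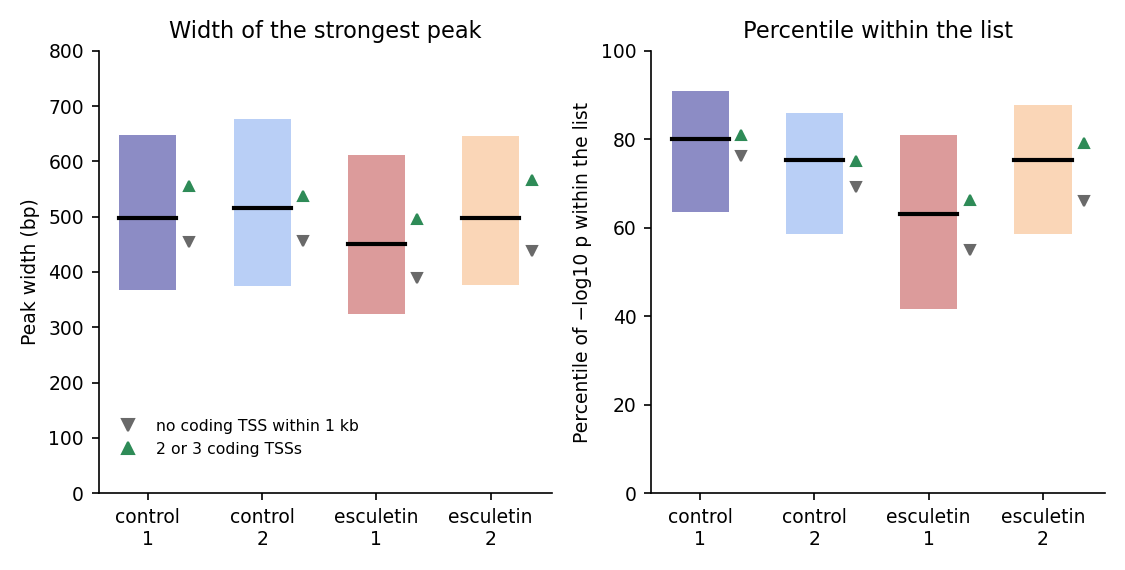
Width in bp (left) and percentile of −log10 p within the list (right) of the strongest peak at members, by library. Boxes span the quartiles over 3806 members and the black line is the median. Triangles are medians of the regions called in all libraries with no coding TSS within 1 kb (dark, pointing down) and with 2 or 3 (green, pointing up), which lie below and above the member medians in width in every library.

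Within a library, wider member peaks had higher percentiles, with Spearman's rho of 0.460, 0.462, 0.645 and 0.468 over the 3806 members. Width and −log10 p both grow with the reads in a peak, so this is a description. The absolute distance of the summit from the TSS had rho of 0.00753 to 0.0760 with the percentile. By position of the region's centre, members within 100 bp of the TSS (1889) had median percentiles of 79.4, 74.6, 62.4 and 75.4, and those at 500 to 1000 bp (260) had 76.1, 71.1, 56.8 and 70.005.

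The members strongest in every library were named by their lowest percentile. Asmt, which encodes the last enzyme of melatonin synthesis and lies in the pseudoautosomal region of chromosome X, had 99.7, 98.1, 98.8 and 98.9 in control 1, control 2, esculetin 1 and esculetin 2, with the summit 726 to 764 bp downstream of the TSS. Mmd, named for monocyte to macrophage differentiation, had 98.7, 97.6, 97.1 and 98.4 with the summit between 0 and 39 bp from the TSS, beside the bases shown above. Tmem123 had 98.4, 96.9, 96.8 and 98.8. Amz2, a metalloprotease gene, had 97.7, 96.4, 96.9 and 98.7. The ribosomal protein gene Rps29 had 99.9, 98.8, 96.3 and 99.1. Suco, Tspan14 (a tetraspanin), Hmgcs1 and Sap130 (a subunit of a histone deacetylase complex) were also among the 10 strongest, with 95.1 as the lowest percentile in any list. Hmgcs1 encodes HMG-CoA synthase of the mevalonate pathway, and its percentiles were 98.7, 96.9, 96.6 and 95.6.

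The members weakest in every library included regulators known in macrophages. Tgfb1, the gene of the cytokine TGF-β1, had percentiles of 0.464 and 17.8 in control and 17.2 and 9.21 in esculetin. Its promoter was among the GC-rich ones, with 77% GC and 6 GC boxes in the window. Runx1, a transcription factor of blood cells, had 23.2, 4.51, 4.96 and 18.8. Lgals3, the gene of galectin-3 (a lectin abundant in macrophages), had 24.7, 5.29, 17.9 and 13.4. One of the regions at Ube2e3 had 26.6, 7.89, 3.98 and 13.9. The histone gene H3c10 had 27.9, 26.5, 19.3 and 17.8. It belongs to a family of near-identical copies, and whether it lost reads that map to several places was not tested.

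To see how the rank of a member moved with esculetin, the percentile among the 6174 regions called in all libraries was compared between the groups. In 931 members (24.5%) both esculetin libraries ranked above both control libraries, where the share over all 6174 regions was 25.1%. In 929 members (24.4%) both control libraries ranked above both esculetin libraries, where the share over all regions was 24.3%. Member counts were therefore near the background in both directions. Without control 2 the counts were 1447 (38.0%, all regions 37.8%) and 1403 (36.9%, all regions 37.0%). With a gap of more than 20 points between the groups 251 members (6.59%, all regions 6.48%) were higher in esculetin and 255 (6.70%, all regions 6.80%) in control. By percentile within the list the counts were 531 (13.95%, all regions 14.5%) and 1185 (31.1%, all regions 31.1%), so that the split depended on the scale while the members stayed near all regions. Peaks were wider in both esculetin libraries in 653 members (17.2%) against 17.6% of all regions, and narrower in 1037 (27.2%) against 27.6%. Over members the ranks of control 1 and control 2 had Spearman's rho of 0.665, those of esculetin 1 and 2 had 0.671, and the 4 pairs across groups 0.446 to 0.544.

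The members with the largest gap upwards ranked low in both control libraries and high in both esculetin libraries. Wdr18, which acts in ribosome biogenesis, ranked at 13.2 and 17.9 in control and at 83.2 and 80.3 in esculetin, a gap of 62.4 points. Its summit lay at −222, −230 and −216 bp in control 2, esculetin 1 and esculetin 2 and at −72 bp in control 1, and 2 NRF1 sites stood at −184.5 and −107.5 bp in the sequence shown. Polr2a, the gene of the largest subunit of RNA polymerase II, ranked at 23.4 and 39.7 in control and at 93.3 and 94.8 in esculetin. Its peaks measured 598 and 693 bp in control, where the region held 2 peaks in each library, and 1183 and 1169 bp in esculetin, where it held 1. Plekhg2, a guanine nucleotide exchange factor, ranked at 9.64, 6.80, 67.1 and 69.9. Tmub2 ranked at 28.6, 24.2, 85.1 and 84.4, and the uncharacterized gene 9930021J03Rik at 17.8, 1.33, 83.7 and 73.2. Scaf1, whose protein binds the tail of RNA polymerase II, ranked at 13.1, 7.26, 68.3 and 78.2. Vps4a and Mvb12a act in the ESCRT pathway that sorts membrane proteins to the lysosome. Vps4a ranked at 14.04, 20.8, 78.4 and 73.1. Mvb12a ranked at 22.9, 3.10, 74.8 and 89.7. Ppfia1 (33.0, 22.7, 88.7 and 85.9) and Zmynd19 (38.7, 37.4, 91.3 and 92.5) completed the 10. These were chosen for their gap, so the values are a description. The size of a difference depended on the scale, in comparisons chosen after seeing the data. By percentile within the list the difference between group means fell from 62.5 to 32.3 points for Polr2a, from 59.5 to 31.4 for Ppfia1, from 58.4 to 30.4 for Tmub2, from 58.3 to 35.7 for Vps4a, from 66.2 to 41.9 for Wdr18 and from 53.8 to 25.7 for Zmynd19. By rank of the fold it fell from 60.3 to 32.7 for Plekhg2 and from 63.04 to 31.1 for Scaf1.

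**Figure D3:**
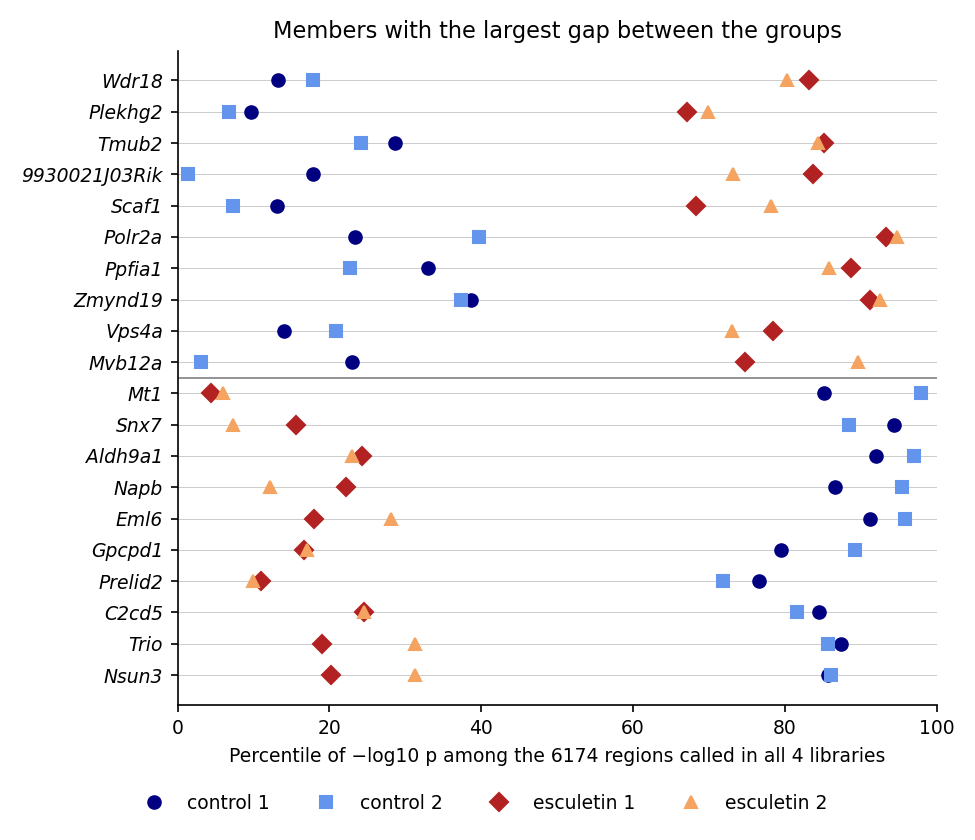
Percentile of −log10 p among the 6174 regions called in all 4 libraries (x axis) for the 10 members with the largest gap in each direction (y axis, gene symbols), 1 marker per library. In the upper 10, from Wdr18 to Mvb12a, both esculetin libraries lie to the right of both control libraries, and in the lower 10, from Mt1 to Nsun3, to the left. These members were chosen by this gap.

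The largest gap of all ran the other way. Mt1 encodes a metallothionein, a small protein that binds zinc, copper and cadmium and is induced by metals and oxidative stress. It ranked at 85.2 and 98.0 in control and at 4.37 and 6.03 in esculetin, a gap of 79.2 points. Its percentiles within the lists were 94.8, 96.6, 12.7 and 27.5, and its fold enrichment 5.33, 7.58, 3.30 and 3.74. The summits lay 184 to 269 bp downstream of the gene's 5′ end, beside a start that the promoter table places 206 bp downstream. The window at that start held 3 matches to the core of the metal response element (TGCACNC or TGCGCNC, either strand), 1 of which is printed above. Such a core was in 39.8% of member promoters and 29.5% of all, and 427 of 17274 promoters held at least 3.

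The other members that ranked higher in control had varied roles. Snx7, a sorting nexin of endosomes, ranked at 94.4 and 88.4 in control and at 15.6 and 7.34 in esculetin. Aldh9a1, an aldehyde dehydrogenase of carnitine synthesis, ranked at 92.0, 97.0, 24.3 and 22.95. Napb, an adaptor in membrane fusion, ranked at 86.6, 95.4, 22.2 and 12.2. Eml6 (91.2, 95.8, 18.0 and 28.1) belongs to a family of microtubule-binding proteins. Gpcpd1, which hydrolyses glycerophosphocholine, ranked at 79.5, 89.3, 16.7 and 17.1. Trio, a guanine nucleotide exchange factor, ranked at 87.3, 85.7, 19.1 and 31.3. Nsun3, a methyltransferase of mitochondrial tRNA, ranked at 85.7, 86.0, 20.2 and 31.3. Prelid2 and C2cd5 were the remaining 2, with gaps of 60.9 and 57.0 points. These 10 were likewise chosen for their gap.

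Sequence content was set beside these ranks. In the quintile of members with the lowest CpG ratio, 17.9% ranked higher in both esculetin libraries and 31.4% in both control libraries. In the quintile with the highest CpG ratio the shares were 33.3% and 20.9%. The median rank in the lowest quintile was 52.7, 50.5, 41.8 and 46.6 in control 1, control 2, esculetin 1 and esculetin 2, and in the highest 45.5, 50.0, 56.0 and 51.5. Esculetin 1, the shortest list, thus had the steepest change across the quintiles. The part of list length in this was not tested.

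Members with an NRF1 site, of which there were 189, ranked at medians of 42.1 and 41.0 in control and 64.2 and 50.5 in esculetin. Both esculetin libraries were above both control libraries in 70 of them (37.0%), against 24.5% of all members, and below in 26 (13.8%), against 24.4%. NRF1 is a factor of genes for mitochondria and the basic functions of the cell. In the lower 3 quintiles of CpG ratio, 38.7% of members with the site and 21.1% of members without it were higher in esculetin, and in the upper 2 quintiles 35.4% and 30.3%. Of the 113 members with a YY1 site 38.9% were higher in esculetin and 20.4% in control, with median ranks given in the plot by motif. Members with a CCAAT box (25.0% and 25.4%) or an ETS site (25.2% and 25.5%) were near the shares of all members. Those with a TATA box (177) were higher in esculetin in 31.1% and in control in 20.3%, and those with a CRE (133) in 28.6% and 19.5%, so a higher share in esculetin was not limited to the NRF1 and YY1 sites. The median rank difference, esculetin minus control, was 8.62 with the NRF1 site, 7.91 with the YY1 site and 7.00 with the TATA box. With the CRE it was −0.47, against 0.41 for members without a CRE. Members that hold a motif share base composition, and no test was made over them.

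**Figure D4:**
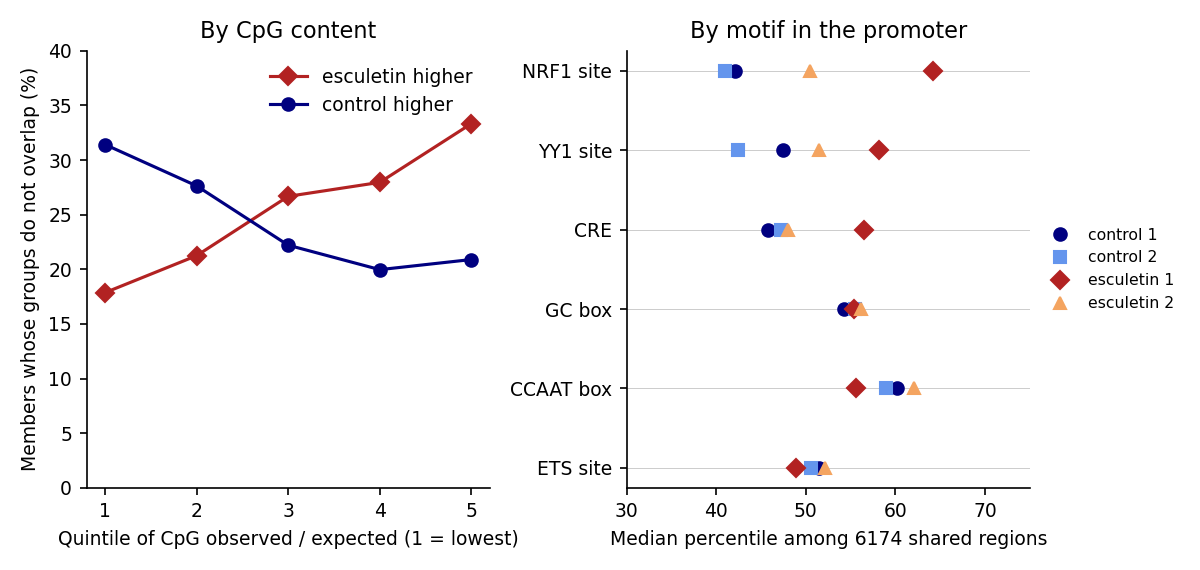
Left, share of members whose groups do not overlap (y axis, %), with esculetin higher or control higher, by quintile of the observed to expected CpG ratio (x axis), over 3132 members with a sequence. Right, median percentile among the 6174 shared regions (x axis) of members that hold each motif (y axis), 1 marker per library. Members with an NRF1 site have control medians of 42.1 and 41.0 and esculetin medians of 64.2 and 50.5.

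Gene functions were described with 32 lists of genes, which held 615 member genes (16.2%). Genes entered a list by their symbol, so a list can hold genes of another role. Of all coding genes 17.9% were members, and of the 3791 member genes 929 were higher in both esculetin and 925 in both control libraries, or 1441 and 1397 without control 2. The counts of each list below stand against these shares, which were 24.5% and 24.4% of member regions with all 4 libraries, and no list was tested. The lists with the largest shares of members were the coat proteins of vesicles between the endoplasmic reticulum and the Golgi (20 of 36), the ubiquitin-conjugating enzymes (20 of 37) and the cytosolic ribosomal proteins (40 of 81). Between 40.0% and 45% of their genes were members in the lists of histone deacetylases, demethylases and methyltransferases (22 of 50), replication and cell cycle (32 of 73), Mediator (14 of 32), Rab GTPases (27 of 62), spliceosome (26 of 60), autophagy (13 of 30), translation initiation factors (23 of 55) and interferon regulatory factors and STATs (8 of 20). Those of MAP kinases (17 of 43), vacuolar protein sorting (13 of 34), SWI/SNF and CHD remodelers (14 of 37), proteasome (18 of 48), nuclear pore (9 of 24), lysosome and vacuolar ATPase (22 of 59), sterol and lipid handling (14 of 38), RNA polymerase II and general factors (19 of 53), aminoacyl-tRNA synthetases (12 of 35), chaperones (25 of 80) and Toll-like receptors and NF-kB (12 of 40) came next. DNA repair had 16 of 61, the nuclear-encoded respiratory chain 24 of 94 and the heterogeneous nuclear ribonucleoproteins 5 of 20.

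Other lists lay near or below the share of all genes. The Zfp genes, zinc finger genes of which many encode KRAB repressors, had 78 of 394 and the solute carriers 60 of 371. The mitochondrial ribosomal proteins had 12 of 78, while another 20 of them lay at regions called in all libraries that were shared by 2 or 3 coding genes, and so were not members. Of 137 interleukins, chemokines and their receptors only Il6st, the shared receptor subunit gp130, was a member. Of 941 olfactory receptors and 108 keratins none was, and of 388 vomeronasal and taste receptors 1, Vmn2r29, was.

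In the machinery of transcription, 9 of the 19 members for RNA polymerase II and its general factors ranked higher in both esculetin libraries and 1 in both control libraries (11 and 3 without control 2). Beside Polr2a, the subunit gene Polr2e ranked at 2.19 and 5.09 in control and 44.3 and 46.2 in esculetin. Taf4b, a subunit of TFIID, ranked at 78.5, 59.4, 84.6 and 85.0. Gtf2e2, a subunit of TFIIE, ranked at 77.2 and 66.4 in control and 76.2 and 51.0 in esculetin, so its groups overlapped. Among the histone deacetylases, demethylases and methyltransferases 11 of 22 were higher in esculetin and 2 in control (11 and 4 without control 2). None of the 3 with the highest mean percentile was among these. Kdm4b, a histone demethylase, ranked at 91.4 and 81.7 in control and 79.8 and 95.3 in esculetin. Of the spliceosome list 8 were higher in esculetin and 3 in control (14 and 4 without control 2). Lsm4 ranked at 51.2, 46.1, 96.0 and 90.5. The weakest was Lsm14a, at 2.39, 36.3, 0.907 and 9.53, which entered the list by its symbol and is not a spliceosome subunit. The SWI/SNF and CHD remodelers had 6 and 5, and Mediator 4 and 3. Median CpG ratios were 0.995 for the polymerase members and 0.830 for all members. The ratio and the direction did not go together in every list. DNA repair, with 0 higher in esculetin and 6 in control, had 0.946. Vacuolar protein sorting, with 4 and 1, had 0.773. What base composition contributed was not tested.

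In translation, 12 of the 40 cytosolic ribosomal protein members were higher in esculetin and 2 in control, and without control 2 the counts were 18 and 10. Rpl39 was the weakest, with ranks of 6.5, 1.46, 26.4 and 12.6, and Rpl15 ranked at 85.5, 70.1, 67.4 and 87.4. These genes have many processed pseudogenes, and whether reads in their transcribed parts were lost to mapping at several places was not tested. Of the translation initiation factors 7 were higher in esculetin and 2 in control (13 and 4 without control 2), with Eif4g2 at 54.6, 82.7, 94.1 and 97.7. The groups overlapped at Eif2ak4 (92.0, 87.1, 86.1 and 90.2) and at Eif1ax (2.19, 79.5, 30.7 and 21.6). Eif2ak3, the kinase PERK of the unfolded protein response, ranked at 94.0 and 93.6 in control and 66.7 and 93.5 in esculetin. Eif2ak3 and Eif2ak4 encode kinases, not initiation factors, and entered this list by their symbol. Of the aminoacyl-tRNA synthetases none was higher in esculetin and 4 in control, but without control 2 the counts were 4 and 6.

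Of the 16 members in DNA repair none was higher in both esculetin libraries and 6 were higher in both control libraries (2 and 10 without control 2). Parp2, which senses DNA strand breaks, ranked at 97.7, 77.9, 58.3 and 41.5. Of replication and cell cycle genes 7 were higher in esculetin and 13 in control, and Gins2, a replication factor, ranked at 93.7, 76.5, 96.1 and 93.1. Among the 78 Zfp genes, whose median CpG ratio was 0.687, 15 were higher in esculetin and 29 in control (20 and 42 without control 2).

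Genes of lipid handling and of lysosomes act in the uptake and breakdown of oxLDL. Of the 14 members in sterol and lipid handling 2 were higher in esculetin and 3 in control (5 and 4 without control 2). Sqle, the squalene epoxidase, ranked at 83.5, 93.2, 85.2 and 85.7. Scarb1, the HDL receptor SR-BI, ranked at 25.8, 14.3, 34.2 and 0.324. Of the 22 members in the lysosome and vacuolar ATPase list 3 and 5 were (4 and 9 without control 2). Lipa, the lysosomal acid lipase, ranked at 92.4 and 89.9 in control and 40.0 and 69.6 in esculetin. Npc1, which exports cholesterol from the lysosome, ranked at 46.0 and 68.6 in control and 76.4 and 80.01 in esculetin. Ctsb, the protease cathepsin B, ranked at 10.5, 17.7, 20.1 and 8.84. Of the autophagy members none was higher in esculetin and 3 in control (6 and 3 without control 2).

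In signalling, the Toll-like receptor and NF-kB list had 3 members higher in esculetin and none in control (7 and 3 without control 2), with Relb at 77.7, 85.9, 85.6 and 81.7 and Traf7 at 40.4, 66.4, 81.8 and 81.9. The adaptor genes Traf5 (89.8, 63.2, 21.3 and 75.1) and Traf3 (1.10, 1.94, 47.7 and 2.69) had their most distant value in esculetin 1, on opposite sides. Interferon regulatory factors and STATs had 1 and 1 (3 and 1 without control 2), and Stat3 ranked at 81.8, 93.3, 79.4 and 93.4. MAP kinases had 6 and 2 (8 and 6 without control 2), with Mapk8, the kinase JNK1, at 75.4 and 84.2 in control and 90.9 and 91.2 in esculetin. Map3k3 ranked at 85.7, 89.1, 70.9 and 95.7, with overlapping groups. Of vesicle traffic genes, the Rab GTPases had 9 and 5, the coat proteins 4 and 5, and vacuolar protein sorting 4 and 1. Without control 2 these were 11 and 11, 4 and 10, and 6 and 2. Rab22a, a GTPase of endosomes, ranked at 97.0, 96.7, 95.2 and 87.8. The proteasome had 5 and 5, the ubiquitin-conjugating enzymes 7 and 4, and the chaperones 5 and 5, and without control 2 they had 7 and 7, 12 and 7, and 6 and 12. Dnajc13, an endosomal cochaperone, ranked at 97.5 and 96.6 in control and 93.7 and 86.4 in esculetin. Dnajb9, of the endoplasmic reticulum, ranked at 91.7, 92.2, 90.9 and 92.9. Hspa8, the constitutive heat shock cognate protein, ranked at 71.4 and 75.02 in control and 95.9 and 94.7 in esculetin. The respiratory chain had 7 and 5, the solute carriers 16 and 18, the nuclear pore 2 and 1, the heterogeneous nuclear ribonucleoproteins 2 and 1, and the mitochondrial ribosomal proteins 1 and 2. Without control 2 the respiratory chain had 9 and 9, the solute carriers 24 and 25 and the nuclear pore 2 and 2. The heterogeneous nuclear ribonucleoproteins then had 3 and 1 and the mitochondrial ribosomal proteins 4 and 5.

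**Figure D5:**
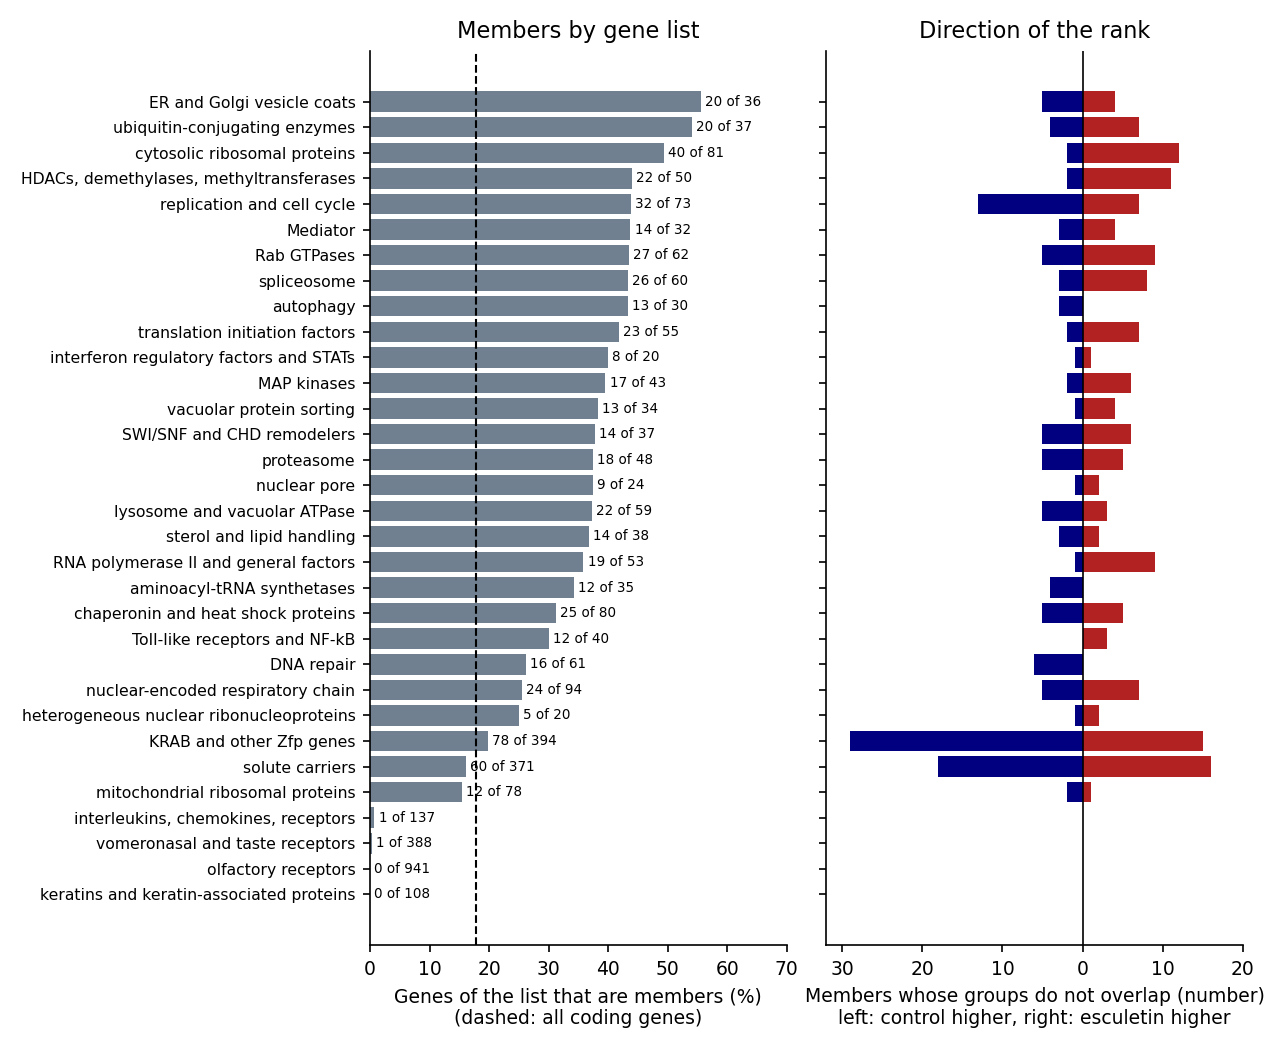
Left, share of the genes of each list that are members (x axis, %), with the number of members and of genes beside each bar and the share of all coding genes, 17.9%, as a dashed line. Right, number of members of the list whose groups do not overlap (x axis), control higher to the left and esculetin higher to the right. The Zfp genes have 29 members to the left and 15 to the right, and RNA polymerase II and its general factors have 1 and 9.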

How the data were processed

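The authors trimmed paired reads (Trim Galore), aligned them to mm10 (Bowtie2), removed duplicates and multiply mapped reads, and called peaks in each library (MACS2). The caller's options, including whether cut sites were shifted, are not given in the sources used here. Each of the 4 deposited peak lists gives, besides position, summit and a score per peak, the fold (a linear ratio of summit over background) and the −log10 p and −log10 q made by the authors' peak caller. The lists hold no read counts, so no count model was run. Depth was solved from fold and p.

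Chromosomes 1 to 19 and X were used. Where a library had several peaks in a region, the strongest represented it. TSSs came from a RefSeq table (GRCm38.p6), with strands from its promoter table (17274 coding genes) or, by symbol, from GENCODE vM39 (3941). Both sources of strand matched in 99.4% of 22231 shared genes. Genes with no strand were not used. The members and lists were chosen with earlier results of these data known. Named genes followed a rule: the highest and lowest percentiles, the largest gaps, widths and summit spans, those at the 1 kb limit, and the 3 strongest and 1 weakest member of each list, most of which are not reported here. Groups were compared with two-sided exact permutation tests over libraries. The merging, TSS and ranking steps were tested on simulated lists. Python 3.11.15, pandas 2.3.3, NumPy 2.4.6 and matplotlib 3.10.9 were used.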

Additional observations from a re-analysis of the deposited data

How the results depend on the processing

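The number of members was 3806 and lay between 3369 and 4183 under the other definitions of joining, window, position, q and TSS, the last (every transcript start of the promoter table) chosen after seeing the data, except for the 2121 found when each list was cut to its 8677 strongest peaks. Without 1 library it was 3924 to 4771, highest without esculetin replicate 1, the shortest list. In the equally long lists the percentile difference between groups was 12.8 in place of −8.43, the share with more than 1 peak 0.401 in place of −3.73 percentage points, and the percentile difference to other regions −1.94 in place of 3.31. The rank difference of −0.27 was 0.0749 within 500 bp, 0.245 by fold and −0.911 to 0.364 without 1 library. Members with esculetin higher (931) numbered 531 by percentile within the list (13.95%, all regions 14.5%), 492 in the equally long lists (23.2%, all regions 24.4%) and 1392 to 1447 without 1 library (36.6 to 38.0%, all regions 37.3 to 38.3%). Those with control higher (929) numbered 1185 (31.1%, all regions 31.1%), 521 (24.6%, all regions 24.5%) and 1348 to 1470 (35.4 to 38.6%, all regions 35.8 to 37.4%). Fewer libraries or peaks make non-overlap easier or the set smaller by construction.

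The replicate numbers carry no label that pairs the libraries, and the peak names inside the esculetin lists carry other replicate tags than the sample labels, which were used. The deviations of control 1 and esculetin 1 from their group means had a correlation of −0.03 over members. A replicate block leaves each difference as it was by construction, −32.5 bp in width and −3.73 percentage points in the share with more than 1 peak, both with p = 0.5, the smallest the exact sign-flip test allows, and p = 1.0 for the other 3. Whether depth, between 4.08 and 6.51, limited the weak peaks was not tested.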
